A study of Mus musculus with 6 samples.

Results

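Regions with a listed Nanog peak and no listed peak of the 4 other profiled factors were the commonest kind of merged region in these J1 mouse embryonic stem cell data. They were found by merging the peaks of the Tgif1, Tgif2, Hdac1, Nanog and Smad3 lists on chromosomes 1 to 19 wherever they overlapped by at least 1 bp. The members were chosen by the measured peak calls, as the merged regions that held a Nanog peak and no peak of another list. Of 32551 merged regions, 7154 met this rule, or 22.0%, and each held exactly 1 Nanog peak. Keeping in every list only peaks of at least its median fold left 4539 such regions, and setting that limit on the Nanog list alone left 3589. They made up 42.5% (95% Wilson interval 41.8 to 43.2) of the 16833 Nanog peaks on these chromosomes.

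Nanog is a homeodomain transcription factor of the pluripotency network and works in embryonic stem cells together with Oct4 and Sox2. Tgif1 and Tgif2 are related homeodomain corepressors that can bind Smad proteins and recruit histone deacetylases. Hdac1 is such a deacetylase, and Smad3 is an effector of TGF-beta and Activin signalling that acts in the nucleus. Chromatin immunoprecipitation with sequencing (ChIP-seq) reads such binding as peaks, stretches where sequenced fragments, here counted as tags, pile up above background.

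All libraries came from J1 cells with BirA, a bacterial biotin ligase, kept in serum with leukemia inhibitory factor and no further treatment. Nanog and Tgif2 were pulled down on streptavidin beads, which capture biotin, and antibodies were used for the remaining 3 factors. Every factor had 1 library and 1 peak list, so no value has a replicate check. The mock precipitation was not analysed here. The lists held 16273 Tgif1, 18976 Tgif2, 16398 Hdac1 and 1199 Smad3 peaks on these chromosomes, and the depth of the libraries is unknown.

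Standing alone means only that no peak of another list reached that place. The weakest listed peak held 16 tags for Nanog, 30 for Tgif1, 33 for Tgif2, 28 for Hdac1 and 11 for Smad3, and signal below these limits is not in the lists. Intervals treat peaks as the units counted, which are no replicates of the experiment, so they express counting error alone. Because the rule used these same lists, tags, fold, width and distance are described without a test, also beside other kinds of region.

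The Nanog-only regions were narrow and held few tags. Their median width was 561 bp, with quartiles of 464 and 674.8 bp and a range from 201 to 2469 bp. The other 9679 Nanog peaks, which overlapped at least 1 other factor, had a median of 707 bp with quartiles of 570.5 and 904 bp. The middle of the Nanog-only distribution therefore lay just below the lower quartile of the shared peaks.

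The median Nanog-only region held 24 tags (quartiles 19 and 34), against 37 tags (24 and 67) in shared Nanog peaks. Of the members, 35.4% held 16 to 20 tags, the bottom of the list, compared with 16.5% of the shared peaks. At the other end, 122 members (1.71%) held at least 100 tags, against 1409 shared peaks (14.6%). Members held 27.3% of all Nanog tags in peaks and covered 35.9% of the length of all Nanog peaks. Tags per kilobase differed less, with a median of 44.8 in members and 53.3 in shared peaks. The summit lay at a median of 49.5% of the peak's length in members and 49.7% in shared peaks.

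Fold enrichment, the authors' ratio of a peak to its background, gave another picture. Its median was 23.8 in members (quartiles 14.8 and 35.8) and 23.1 in shared peaks (13.9 and 42.5), so the medians lay close together, while the shared peaks were spread more widely. Of the members 39.5% had 20-fold to under 40-fold, against 30.7% of shared peaks. Under 10-fold were 8.30% of members and 10.8% of shared peaks, and 2.03% and 5.94% reached 100-fold. With only Nanog peaks of at least the median fold kept, which removes low values by construction, the median of members was 35.8-fold.

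**Figure D1:**
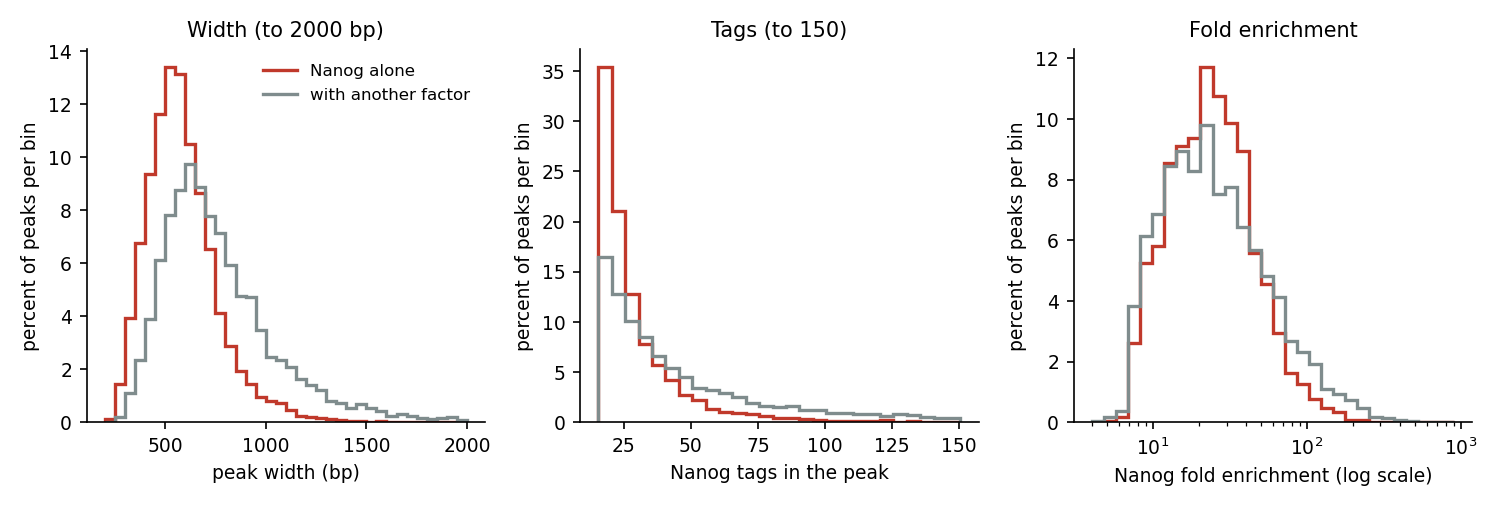
Distributions of width in bp, tags and fold enrichment (log axis) for the 7154 Nanog peaks standing alone and the 9679 Nanog peaks shared with another factor, as percent of peaks per bin. Members crowd at low widths and tags (medians 561 bp and 24 tags against 707 bp and 37 tags), while the median folds, 23.8 and 23.1, lie close together and the fold curve of shared peaks is lower in the middle and wider.

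Low tags beside partner-free peaks were not limited to Nanog. The ratio of median tags in peaks standing alone to those in shared peaks was 0.649 for Nanog, 0.696 for Tgif1, 0.694 for Tgif2, 0.700 for Hdac1 and 0.589 for Smad3. The same ratio for width was 0.793 for Nanog and ran from 0.716 to 0.894 in the other lists. For fold it was 1.03 for Nanog and between 0.815 and 0.987 in the others. These ratios describe 1 library per factor and were not tested against each other. Nanog peaks also stood alone more often, at 42.5%, than Tgif2 peaks at 17.8%, Hdac1 peaks at 11.2%, Tgif1 peaks at 8.98% and Smad3 peaks at 6.17%. The lists had unlike lower limits, at 16 tags for Nanog, 33 for Tgif2, 28 for Hdac1, 30 for Tgif1 and 11 for Smad3. The related Tgif1 and Tgif2 also counted as partners of each other. How much of the difference in shares these set was not tested.

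Nanog tags were higher at each step in the number of partners, whereas fold was not. Median tags were 24 with no other factor, 32 with 1, 35 with 2, 37 with 3 and 118 with all 4. Median fold went from 23.8 with no partner down to 23.0, 21.9 and 21.2 with 1, 2 and 3 partners, and stood at 49.1 with all 4. Among Nanog peaks with a single partner, the 1781 with Hdac1 had 33 tags and 24.7-fold in the median, and the 557 with Tgif2 had 27 tags and 19.01-fold. The 399 with Tgif1 had 29 tags and 19.7-fold. The 81 with Smad3 had 55 tags and 45.2-fold. By tags, the Tgif2 pair was the nearest of these 4 to Nanog alone, and by fold it was the Hdac1 pair.

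The share of Nanog peaks standing alone was lower in every step of tags and of width. When the 16833 Nanog peaks were put into 5 bins by tags, 62.3% (60.7 to 64.0) stood alone among those with 16 to 19 tags. The share was 55.2% at 20 to 25 tags, 45.04% at 26 to 35, 34.3% at 36 to 59 and 14.9% (13.7 to 16.1) at 60 tags or more. By width it went from 64.9% in peaks up to 488 bp to 15.2% in peaks of at least 857 bp. A wider peak has more length in which to meet the overlap rule, so width and the rule are not independent. How much of the gradients this sets was not tested. By fold the share went from 38.3% (36.6 to 39.9) in the lowest bin to 49.8% (48.1 to 51.5) in bin 4, but bin 5, the highest, had 33.1% (31.5 to 34.7).

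Within a fixed range of tags, a higher fold went with standing alone. Among peaks of 16 to 19 tags, 49.3% (46.5 to 52.1) of those in the lowest fold bin stood alone, and 85.7% (82.3 to 88.5) of those in bin 4. Among peaks of 26 to 35 tags the share went from 32.3% (29.0 to 35.7) in the lowest fold bin to 73.7% (68.9 to 78.0) in the highest. Among peaks of at least 60 tags it stayed between 11.3% and 16.3% in all 5 fold bins, without a steady rise. These peaks ran from 60 to 1349 tags, so tags were not held in a narrow range there. Seen the other way, members of 16 to 19 tags had a median fold of 18.1, against 13.4 in the shared peaks of the same tags. At 36 to 59 tags these medians were 34.8 and 24.95, and at 60 tags or more they were 62.85 and 53.23. Members therefore reached more fold per tag than shared peaks, with 1.06 tags per unit of fold in the median member and 1.68 in the median shared peak. Within every tag bin members were also narrower. Their median width was 496 against 531 bp at 16 to 19 tags, and 659 against 751 bp at 36 to 59 tags. The part of width in this contrast was not tested.

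**Figure D2:**
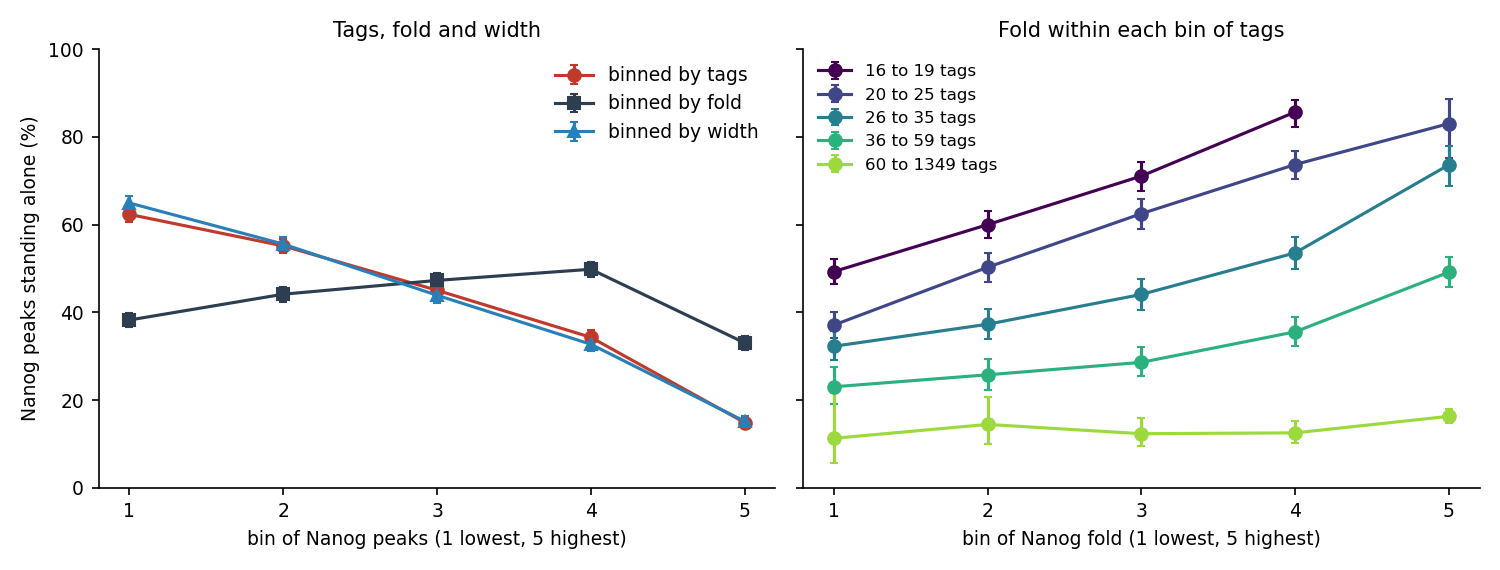
Percent of Nanog peaks standing alone (vertical axis, 95% Wilson intervals), left over 5 bins of tags, fold or width, right over bins of fold within each bin of tags; cells under 20 peaks are not drawn. The share goes from 62.3% to 14.9% over the tag bins, whereas within peaks of 16 to 19 tags it goes from 49.3% to 85.7% over the first 4 fold bins.

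The Nanog peaks with the most tags were seldom alone. Among the 100 Nanog peaks with the most tags there were 0 members, and among the 1000 with the most tags there were 58, or 5.80%. Ranked by fold there were 7 members among the first 100 and 224, or 22.4%, among the first 1000. Of all Nanog peaks 42.5% were members. The choice of ranking therefore changed how many leading Nanog peaks had no partner.

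The member with the highest fold, in mm9 coordinates, was chr14:75904966-75905784, 818 bp wide, with 480-fold enrichment and 246 tags. Its nearest peak of another list, for Hdac1, lay 35587 bp away. It was also among the 5 members with the most tags. Next by fold came chr9:61316042-61316666 with 287-fold and 172 tags, only 1439 bp from an Hdac1 peak, and chr5:22906937-22907940 with 272-fold and 196 tags, 5670 bp from Hdac1. The region chr15:99871753-99872364 reached 239-fold with a Tgif2 peak 1581 bp away. The other 6 of the 10 members with the highest fold ranged from 200-fold to 234-fold and from 109 to 152 tags. They included chr4:69553744-69554538, which lay 265565 bp from the nearest other-factor peak, and chr14:27813366-27814015, which lay 5277 bp from one. Members of high fold thus occurred both beside other factors and far from them.

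By tags the leading member was chr10:84170543-84171505 with 286 tags and 81.8-fold. It was followed by chr1:63184304-63186071, with 275 tags over 1767 bp and only 39.8-fold, and by chr9:102107840-102108506, with 261 tags in 666 bp and 117-fold. The fifth, chr4:61650901-61651895, held 234 tags at 137-fold and lay 217244 bp from an Hdac1 peak. These 5 members, with 234 to 286 tags, spread from 39.8-fold to 480-fold. No sequence or gene is given for any region, because no mm9 sequence or annotation was used here.

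The border-to-border distance to the nearest peak of another list had a median of 16708 bp (95% interval 15838 to 17634) and quartiles of 3986 and 59483 bp. It was 35515 bp when only peaks of at least the median fold were kept in every list, which leaves fewer peaks to be near. The rule itself set the lower end of this distance. Only 463 members (6.47%) lay within 500 bp and 772 (10.8%) within 1000 bp of another factor, so near misses of the overlap rule were a small part of the class. A further 2094 lay farther than 1000 but within 10000 bp, 3071 between 10000 and 100000 bp, and 1217 (17.0%) beyond 100000 bp. For 71 members there was no peak of another list within 1000000 bp.

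The 3 most remote members were chr8:102201069-102201787, which lay 3788371 bp from the nearest other peak with 28 tags and 40.6-fold, and a pair on chromosome 15. That pair was chr15:48642370-48642814, at 3042143 bp with 38 tags and 12.6-fold, and chr15:47578606-47578900, at 2958734 bp with 20 tags and 43.0-fold. All 3 had a Tgif2 peak as the nearest, and none of them was among the members with the most tags.

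Just inside the rule, chr7:29748142-29749143 (168 tags, 68.3-fold) adjoined a Tgif2 peak at 0 bp without overlap. It would leave the class if peak ends were counted as part of the peak. The regions chr3:104617604-104618059 (41 tags, 24.7-fold) and chr6:125478153-125478443 (19 tags, 33.3-fold) lay 5 bp from an Hdac1 and a Tgif2 peak. The regions chr6:145223707-145224204 (17 tags, 21.1-fold) and chr11:12365561-12366100 (17 tags, 9.93-fold) lay 6 bp from Hdac1 peaks. Just outside it, chr3:96367718-96368471 (27 tags, 13.2-fold) overlapped Hdac1 by 3 bp and chr1:11737872-11738429 (38 tags, 9.63-fold) overlapped Hdac1 by 4 bp. The Nanog peaks chr16:90298957-90299631 (26 tags, 28.8-fold) and chr17:34260140-34261063 (27 tags, 10.2-fold) each overlapped Tgif2 by 6 bp, and chr2:17893707-17894348 (21 tags, 18.5-fold) overlapped Hdac1 by 7 bp. Tags on the 2 sides of the limit overlapped. Such marginal overlaps were rare, since 52 of 9399 shared Nanog peaks outside chromosome 18 overlapped by less than 100 bp at most, and their largest overlap had a median of 663 bp.

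Hdac1, the deacetylase, was the nearest other factor for 43.9% of the members, Tgif2 for 34.6%, Tgif1 for 20.4% and Smad3 for 1.33%. Their lists held 16398, 18976, 16273 and 1199 peaks, in the same order. Hdac1 peaks were the widest, with a median of 1065 bp where shared, against 983 bp for Tgif2, 944 bp for Tgif1 and 704 bp for Smad3. A wider peak brings its border nearer, and the part of width in these shares was not tested. The median distance was 27407 bp to Tgif2, 27702 bp to Hdac1, 31553 bp to Tgif1 and 522156 bp to the short Smad3 list. Hdac1 peaks lay within 1000 bp of 513 members, Tgif2 peaks of 458, Tgif1 peaks of 421 and Smad3 peaks of 75. Of the members, 46.3% had a region with Nanog as the nearest region of another kind, while 35.6% of all such regions held Nanog. The nearest Nanog peak that was shared with another factor lay a median of 44861 bp away, and 24.4% of members had one within 10000 bp.

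Nanog-only regions lay farther from the remaining lists than regions of Tgif2, Hdac1 or Tgif1 alone did, whereas the few regions of Smad3 alone had values near those of Nanog. The median distance was 16708 bp for Nanog alone, 8692 bp for the 3372 regions with Tgif2 alone, 7349 bp for the 1838 with Hdac1 alone and 6927 bp for the 1462 with Tgif1 alone. For the 74 regions with Smad3 alone it was 14253.5 bp. Beyond 100000 bp lay 17.0% of the Nanog-only regions, 6.17% of Tgif2-only, 3.43% of Hdac1-only, 4.10% of Tgif1-only and 14.9% of Smad3-only regions. The remaining lists held 52846 peaks beside Nanog, 50703 beside Tgif2, 53281 beside Hdac1, 53406 beside Tgif1 and 68480 beside Smad3. Peaks of several lists at the same place count more than once in these totals. Of the 32551 merged regions 7154 were Nanog-only, more than in any other class of a single factor. The fewest merged regions to be near therefore lay outside the Nanog-only class, and the part of this in the distances was not tested. The distance to the next merged region of any kind had a median of 11024 bp for Nanog alone and 14253.5 bp for Smad3 alone. For Tgif2, Hdac1 and Tgif1 alone it was 7105.5, 6582.5 and 5603 bp. This distance was 7601 bp for Nanog with Hdac1 and 3749 bp for Nanog with Tgif1, Tgif2 and Hdac1. It was 2250.5 bp where all 5 factors met, so among these 4 classes with Nanog the spacing was wider the fewer factors met.

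Members of higher fold lay farther from other factors, and the gradient with tags was smaller. In 5 bins of members by fold, the median distance to another factor was 8603 bp (95% interval 7436 to 9890) in the lowest, then 10980, 15106 and 25310 bp, and 34959 bp (30263 to 38962) in the highest. By tags it went from 14855 bp at 16 to 18 tags to 19499 bp at 39 tags or more. The gradient with fold was also present among the 2533 members with 16 to 20 tags, from 8188 bp in the lowest fold bin to 35987 bp in the highest. Read the other way, members within 1000 bp of another factor had a median of 17.8-fold and 23 tags, and those beyond 100000 bp had 31.1-fold and 25 tags. Tags per unit of fold moved with the distance, from a median of 1.36 in the nearest group to 0.827 in the farthest. The part of the local background in the fold values was not tested.

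**Figure D3:**
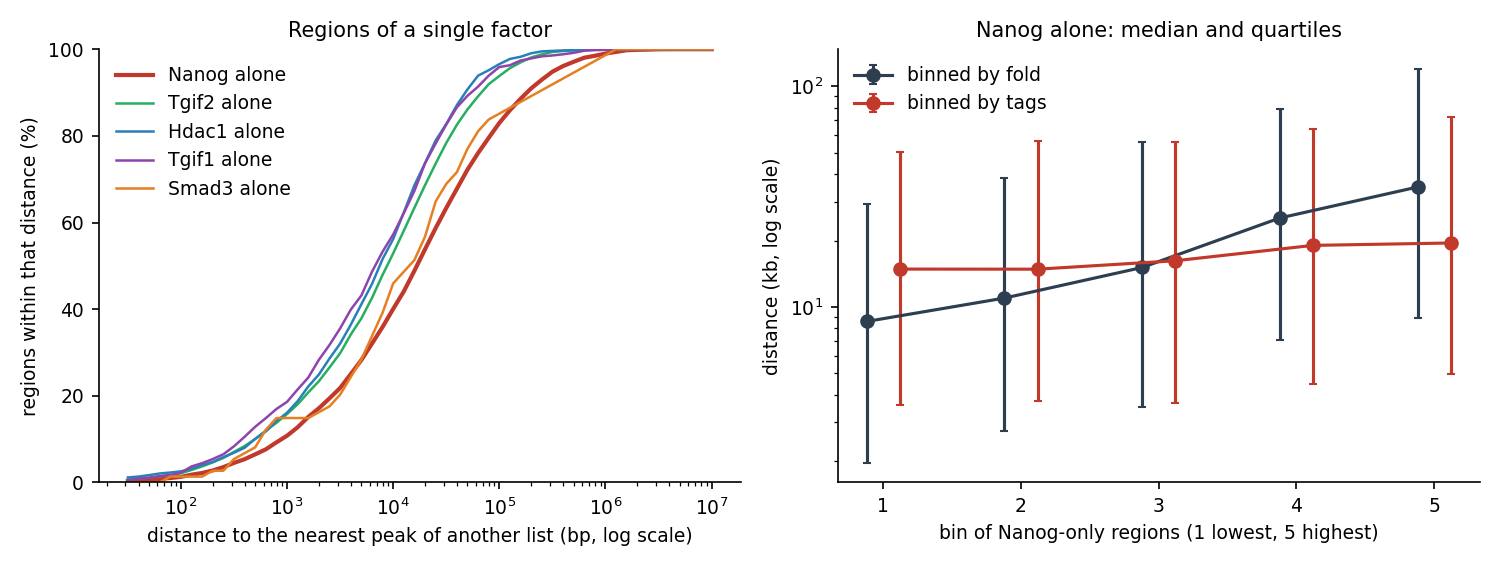
Left, the percent of regions of a single factor that lie within a given distance of any other list (log axis, bp). Right, the distance for Nanog-only regions in kb (log axis), as median and quartiles, over 5 bins of fold or tags; on the left the Nanog curve lies below those of Tgif2, Hdac1 and Tgif1 over most of the range and crosses that of the 74 Smad3-only regions, and the medians on the right go from 8603 to 34959 bp over the fold bins and from 14855 to 19499 bp over the tag bins.

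Most Nanog-only regions had no other member within 10000 bp, although the fullest window of 1 Mb held 18 members. The nearest member of a member lay a median of 58938 bp away (quartiles 15923 and 156287 bp), against 15954 bp from shared Nanog peak to shared Nanog peak. A run was a string of neighbours at most 10000 bp apart. Of the members, 5788 stood in no run and 1366 (19.1%, interval 18.2 to 20.02) in runs of 2 or more, while 43.1% (42.1 to 44.0) of the shared Nanog peaks stood in runs of their own kind. With neighbours up to 20000 bp apart 28.7% of members stood in runs, and with 5000 bp 12.9%. There were 546 runs of 2 members, 74 of 3, 10 of 4 and 2 of 6, the longest. The shared peaks reached runs of 12, although there were also more of them.

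With any Nanog peak as a neighbour, 35.8% of members had one within 10000 bp, against 45.9% of all Nanog peaks, members included. No peak of any list lay within 10000 bp of 3703 members (51.8%), and none within 100000 bp of 773 (10.8%). Members in runs held as many tags as single ones, with medians of 24 and 23, but their fold was lower, at 20.7 against 24.0. They also lay nearer to another factor, at a median of 7231 bp against 19758 bp.

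The 2 longest runs stood on chromosomes 5 and 14 and wound around shared regions. The first, chr5:120134203-120163690, held 6 members over 29487 bp with 20 to 126 tags and 7.32-fold to 63.6-fold. Between them lay 2 shared Nanog peaks, 2 Tgif1, 2 Tgif2, 1 Hdac1 and 1 Smad3 peak. The second, chr14:122793027-122822153, held 6 members over 29126 bp with 16 to 58 tags and 8.50-fold to 47.1-fold, around a place with a peak of all 5 lists. The run of 4 first in genome order, chr1:121301239-121311442, spanned 10203 bp with 17 to 47 tags per member. It enclosed 1 shared Nanog peak, 2 Tgif1 peaks, 1 Tgif2 and 1 Hdac1 peak, so each of these 3 runs included shared as well as Nanog-only places.

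**Figure D4:**
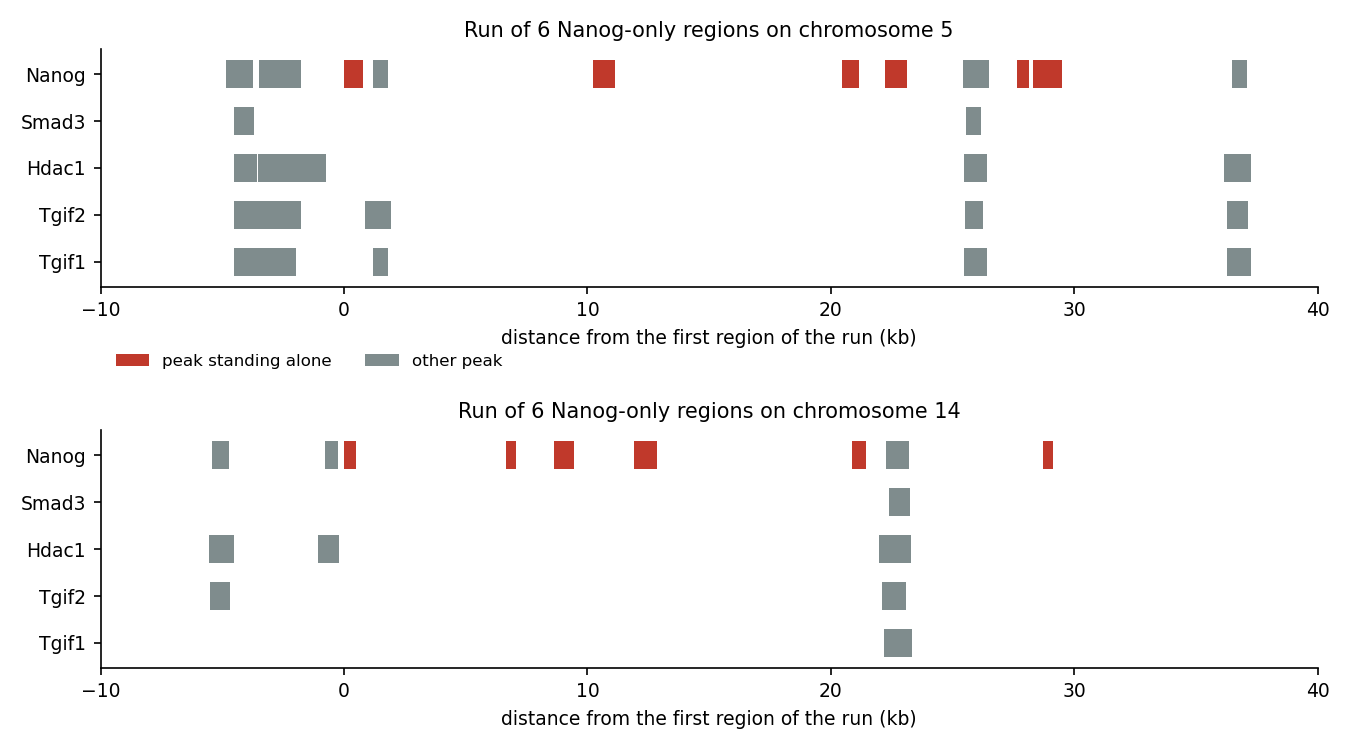
Maps of the 2 runs of 6 Nanog-only regions; the horizontal axis is the distance in kb from the first region of the run, each row is 1 peak list, and bars show peaks to scale. Red bars are Nanog peaks standing alone and grey bars are all other peaks, and both runs enclose a place with peaks of all 5 lists.

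Across the genome, members were present in most bound stretches, and there were more of them where other regions were more numerous. Of 2160 windows of 1 Mb with any region, 1888 held a member and 154 held members only. Windows with 1 to 5 other regions held a mean of 1.62 members, and those with 6 to 15 other regions 3.85. The mean was 5.19 with 16 to 30 other regions and 5.79 with over 30. The 154 windows of members only held a mean of 1.45. That mean cannot be set beside the others, because windows with no region at all were not counted. Over the groups with other regions, the number of other regions rose by a larger factor than that of members. Grouping the windows by that number helps to set this. Windows with over 30 other regions held 33.8% of these regions and 15.8% of the members, a contrast that the choice of windows by other regions helps to set.

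The share of Nanog peaks standing alone varied moderately between chromosomes. It was highest on chromosome 6, at 49.2% (45.8 to 52.5) of 836 peaks, and lowest on chromosome 11, at 36.1% (33.4 to 38.8) of 1234 peaks. The intervals of 6 chromosomes lay above the share of all 19 together and those of 3 lay below it. The 3 low ones were chromosomes 4 (37.3%), 11 and 17 (36.8%). Members on chromosome 11 also had the shortest median distance to another factor, 11196 bp, and those on chromosome 3 the longest, 29485 bp. Median tags of members lay between 22 and 25 on every one of the 19 chromosomes, a narrow range beside that of the shares. Their median fold varied more, from 19.985 to 27 between chromosomes.

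**Figure D5:**
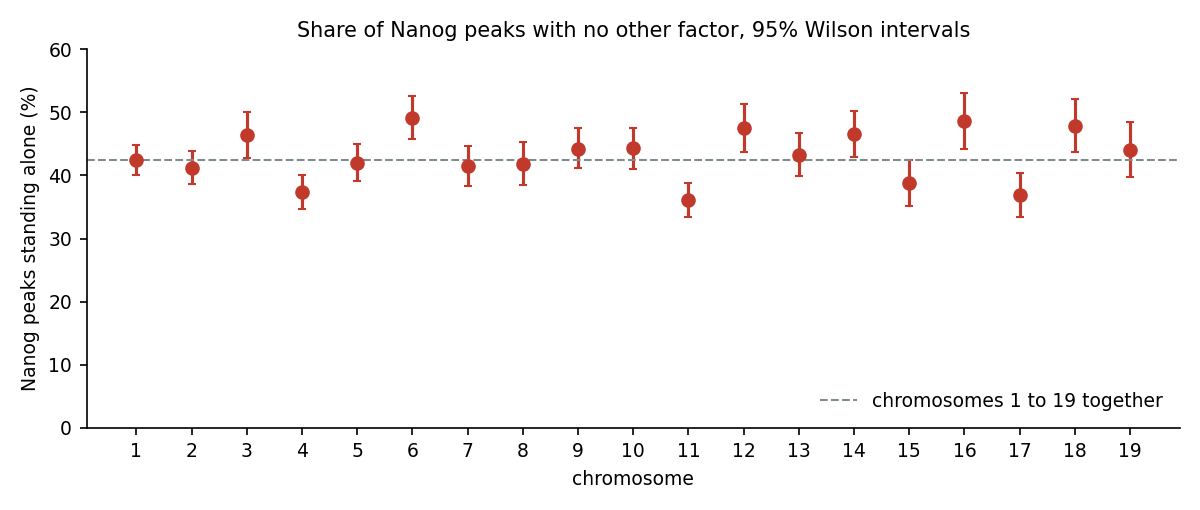
Percent of the Nanog peaks of each chromosome that stand alone, with 95% Wilson intervals; the dashed line is the share on chromosomes 1 to 19 together. The points run from 36.1% on chromosome 11 to 49.2% on chromosome 6, around 42.5%.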

How the data were processed

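The 6 samples form 6 groups of 1 library each, named by their titles, and 5 had a peak list. Per the submitters' processing notes, reads were handled with BWA 0.5.9-r16 and MACS on mm9; settings, controls and thresholds are not given in the sources used here. The deposited lists have no header. The authors' fold enrichment, a ratio, was recognised by its 2 decimals, and the deposited whole-number count per peak was read as its tags. Coordinates are as deposited. Beyond list minimums and ratios formed within a list, neither value was set across lists.

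Peaks were merged and distances taken with Python 3.11.15, NumPy 2.4.6, pandas 2.3.3 and SciPy 1.17.1. The code was tested on simulated peaks, and bedtools 2.31.1 gave 0 differences over the 7154 members and their distances. Wilson intervals cover shares, and intervals of medians come from order statistics. Bins split each measure at its quintiles with ties kept together. Tags per unit of fold is tags divided by fold. The members, their description and the rule for named regions were chosen with earlier results of these data known. Named regions are the 10 members with the highest fold, the 5 with the most tags, the 3 most distant, 3 longest runs and 5 on each side of the overlap limit; chromosome 18 was left out of these. Gene lists and motif searches were planned for the case of an mm9 reference and were not run.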

Additional observations from a re-analysis of the deposited data

How the results depend on the processing

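With 1 library per factor there was no replicate to leave out. No paired analysis was possible because each group has a single library and no test was made. Peak threshold moved the class most: keeping in every list only peaks of at least its median fold gave 4539 regions with 54.7% of the remaining Nanog peaks and medians of 583 bp, 32 tags, 35.8-fold and 35515 bp to another factor. With that limit on the Nanog list alone there were 3589 regions with 43.3%, 551 bp, 28 tags and 35.8-fold. Both settings leave fewer peaks by construction. Under the other definitions of overlap, lists and chromosomes the number stayed between 6192 and 9060. With summits within 200 bp the share was 50.2%, the medians 578 bp and 22.2-fold, and the chromosome shares 55.9% on chromosome 6 and 44.98% on chromosome 11. With 250 bp each side of the summit they were 46.0%, 568 bp and 23.2-fold. Merging within 500 bp gave a share of 39.6%, and within 1000 bp 37.6% with 24.0-fold. Without the Hdac1 list 1906 regions joined the class, and the share was 53.8% with medians of 576 bp, 25 tags and 18998 bp. Without Tgif2 the share was 46.1% and the distance 19197 bp, and without Tgif1 the share was 45.03%. With X and Y included it was 43.3%. The share of members in runs was 12.9% with neighbours within 5000 bp, 28.7% within 20000 bp, and 35.8% had any Nanog peak within 10000 bp. Counting peak ends as part of the peak, an alternative added after the data were seen, left 7153 regions. The overlap of at least 50%, the list without Smad3 and distances between summits stayed within the intervals.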

Other observations

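On the X chromosome and on the unplaced sequence of the Y chromosome, larger shares of Nanog peaks stood alone than on chromosomes 1 to 19. On the X chromosome 195 of 295 Nanog peaks did, or 66.1% (95% Wilson interval 60.5 to 71.3), with medians of 27 tags and 35.1-fold. On the unplaced sequence of the Y chromosome 131 of 136 did, or 96.3% (91.7 to 98.4), with medians of 33 tags and 37.0-fold. On the unplaced sequences of chromosomes 1 and 8 and of no known chromosome, 2 of 6, 1 of 1 and 0 of 1 did. On X and the unplaced Y sequence the other lists were sparse: Tgif1 had 110 peaks on X and 0 on the unplaced Y sequence, Tgif2 126 and 1, Hdac1 95 and 4, and Smad3 23 and 2. The number of peaks in the other lists moved with these shares, and its part in them was not tested.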
